A study of Mus musculus with 2 samples.

Results

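A set of 10 chromatin regulator genes was examined for open chromatin in the growing ends of the mouse femur. The genes were Ezh2, Eed, Suz12, Nsd1, Setd2, Dnmt3a, Chd8, Kmt2d, Crebbp and Ep300, chosen by name because changes in the human genes alter stature, out of 20807 protein-coding genes on the autosomes. Every peak inside one of these genes or with its nearest edge within 50 kb of it was taken. Of 28257 proximal and 27958 distal peaks, 37 proximal and 40 distal peaks met this rule. Merging overlapping peaks of the lists gave 40 regions of 32388 in all. The regions are described here by position, by class (gene start, other start, exon, intron or flank) and by whether they were found at both femur ends or at 1 end.

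The peaks came from ATAC-seq, in which a transposase cuts accessible DNA and tags it for sequencing. Embryos of the inbred FVB strain (labelled FVBNJ) were collected at E15.5, and cartilage was taken from the upper (proximal) and lower (distal) end of both thigh bones, leaving out the shaft. The labels name no treatment or altered allele in either group. A replicate pooled a litter of 8 animals on average and is not a single animal. The ends were taken whole, with all zones of the growth plate and the perichondrium, and a library was made from 50000 cells. There were 2 replicates for each end, but the deposited lists give 1 set of positions per end, without heights, scores or read counts. The comparisons below therefore compare 2 lists, carry no replicate error and have no test. Absence of a peak means only that no peak passed the authors' limit on reproducibility, at a depth that the lists do not give.

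The proteins encoded by the 10 genes write, read or move chromatin marks. Ezh2, Eed and Suz12 form the core of Polycomb repressive complex 2, which methylates a lysine of histone H3 and keeps developmental genes silent. Nsd1 and Setd2 methylate another lysine of histone H3, Setd2 along gene bodies, and Dnmt3a places new methyl groups on DNA. Chd8 is an ATP-dependent chromatin remodeler. Kmt2d marks enhancers by methylating histone H3, and Crebbp and Ep300 are closely related acetyltransferases that act at enhancers. Constitutional mutations of EZH2, EED, SUZ12, NSD1, SETD2 or DNMT3A are known for human overgrowth syndromes, those of CHD8 for large heads and tall stature, and those of KMT2D, CREBBP and EP300 for syndromes with short stature. A peak at a gene start reports accessible DNA there and does not measure transcription.

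The label of the tissue was compared with gene starts that mark cell types. A peak of both lists lay within 1 kb of the start in 6 of 7 chondrocyte genes, and the seventh, Col11a2, had a peak of the distal list only. Such a peak was found at 0 of 4 osteoblast, 0 of 4 skeletal muscle and 0 of 3 endothelial gene starts, where Tek had a peak of the distal list only, while 1 of 4 blood genes and 1 of 3 epithelial genes had one. Other cell types at low numbers cannot be read from a list of positions, and their part in the regions described here was not tested.

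All 10 genes had a region at the gene start that was present at both femur ends. The gene start is the outermost 5′ end of the gene record, and a region was counted there if its nearest edge lay within 1 kb. Among all autosomal coding genes, 50.9% (10584 of 20807, 95% Wilson interval 50.2 to 51.5, counting error only) had a peak of both lists at the gene start. A further 2.71% had a peak of the distal list only and 1.29% of the proximal list only, and 45.1% had none. In 7 of the 10 genes the peaks of both lists lay over the annotated 5′ end itself. The exceptions were Nsd1, Dnmt3a and Kmt2d, where the region lay beside it.

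Of the 40 regions, 36 (90%) were shared between the ends, 1 (2.5%) was proximal-only and 3 (7.5%) were distal-only. Over all merged regions 73% were shared, and the percentages called were 14.1 for proximal-only and 12.9 for distal-only. This share depends on where regions lie. Among the 10407 regions within 1 kb of the 5′ end of a coding gene, 2.63% were proximal-only and 5.59% distal-only, whereas among the 21981 regions elsewhere 19.5% were proximal-only and 16.4% distal-only. None of the 10 regions at the gene starts was found at 1 end only. The 4 single-end regions belonged to Nsd1, Dnmt3a, Crebbp and Ep300, 1 each, and 3 of them lay in flanks.

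By class, 10 regions lay at gene starts, 1 at a start further inside the gene, 4 in introns, 1 over a terminal exon and 24 in the flanks, 9 upstream and 15 downstream. Of the 10 genes, 6 (Ezh2, Nsd1, Setd2, Eed, Suz12 and Ep300) had no region inside the gene other than at its start. Of the 24 flanking regions, 18 lay within 1 kb of an annotated start of another coding gene and 6 did not. These classes were not counted over all coding genes, so the counts describe the set and cannot be called usual or unusual. A flanking region at another gene's start is recorded here by its distance to the member gene, and which gene it serves was not measured.

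**Figure D1:**
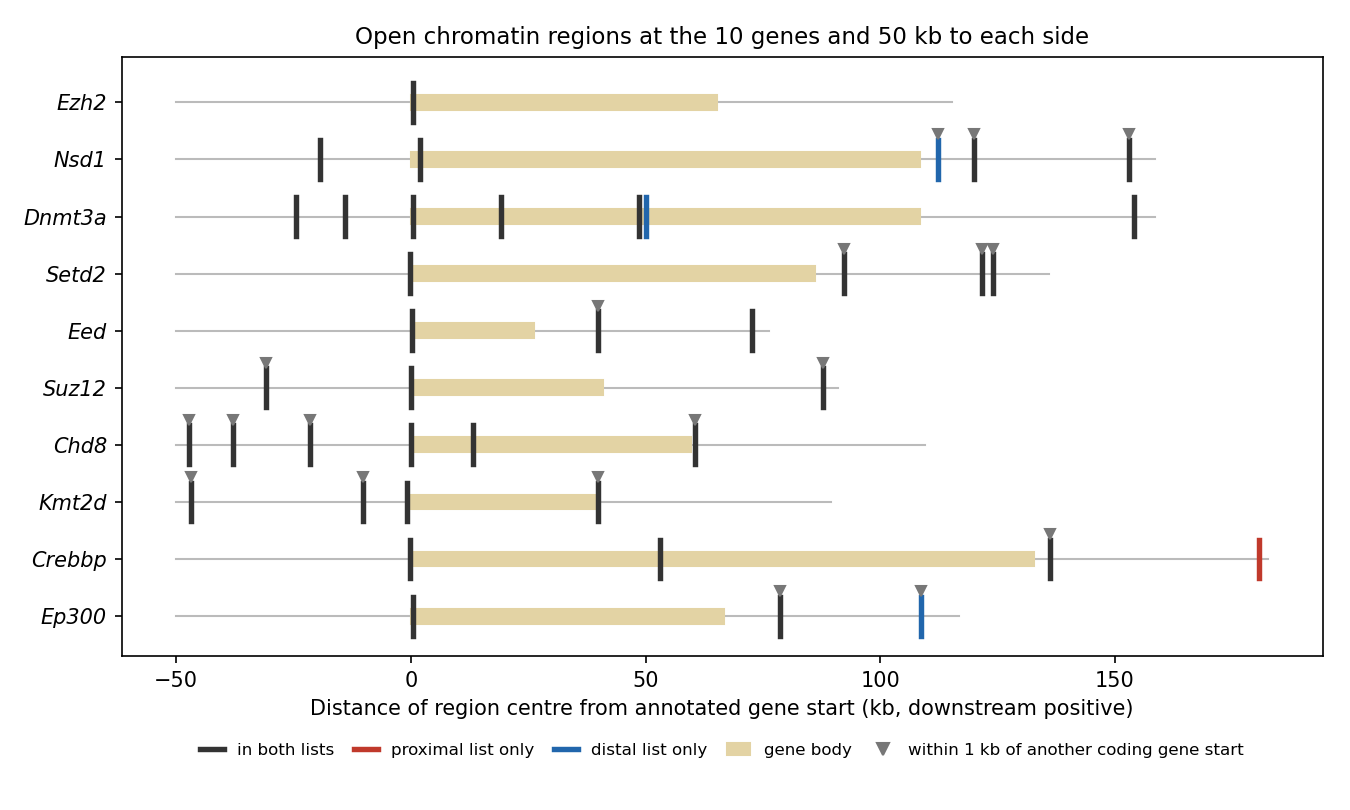
Positions of the 40 regions at the 10 genes. The x axis gives the distance of the region centre from the annotated gene start in kb, oriented so that the gene runs to the right, tan bars are gene bodies, grey lines reach 50 kb past each gene, and vertical marks show region centres, not widths (black, both lists; red, proximal list only; blue, distal list only; triangles, within 1 kb of another coding gene start). A black mark stands at the left end of every gene body, and the single red mark lies downstream of Crebbp.

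The number of regions differed from gene to gene. Dnmt3a had 7 regions, Chd8 had 6, Nsd1 had 5, and Setd2, Kmt2d and Crebbp had 4 each. Eed, Suz12 and Ep300 had 3 each, and Ezh2 had 1. Per 100 kb of gene and flanks the density ran from 0.605 at Ezh2 to 3.76 at Chd8, against a median of 2.07 (quartiles 0.951 to 3.53) over all autosomal coding genes. Of the 10 genes, 8 fell within these quartiles, with Ezh2 below them and Chd8 above. Of all coding genes, 15.6% had a lower density than Ezh2, 72.6% a lower density than Dnmt3a and 78.6% a lower density than Chd8. Most regions around Chd8 lay at starts of neighbouring genes, whereas none of the flanking regions of Dnmt3a did.

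**Figure D2:**
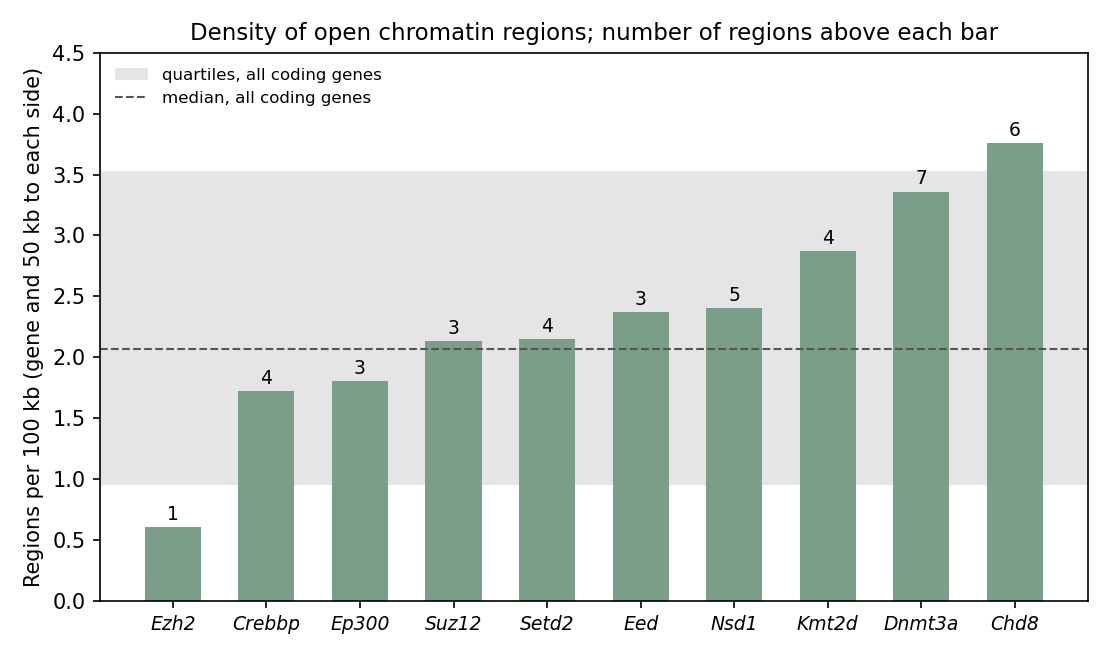
Regions per 100 kb of gene and 50 kb flanks (y axis, linear, from 0) for the 10 genes in rising order, with the number of regions above each bar. The dashed line and the grey band are the median and quartiles over all autosomal coding genes, and Ezh2 at 0.605 is the only bar that ends below the band.

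The genes of Polycomb repressive complex 2 each had a shared region over the start, and Ezh2 had no other region. Ezh2, the methyltransferase of the complex, lies on chromosome 6 (mm10, chr6:47530139-47595341, minus strand). Its only region was chr6:47594123-47595729, which covered the 5′ end with a proximal peak of 1607 bp and a distal peak of 1545 bp. The next regions lay 54861 bp upstream and 138849 bp downstream of it, so the whole gene body and both flanks were otherwise without a peak. No other coding gene starts within 50 kb of Ezh2. Eed, which binds the methylated histone tail, lies at chr7:89954654-89980983 on the minus strand. Its start region, chr7:89979891-89981695, measured 1805 bp in the proximal list and 1689 bp in the distal list. Of all regions at coding gene starts, 98.3% were narrower in the proximal list and 97.6% in the distal list. Downstream of Eed a shared region (chr7:89940640-89941535) lay at the start of Hikeshi, and another (chr7:89907986-89908824, 834 bp proximal and 838 bp distal) lay at no coding gene start. Suz12, needed for the stability of the complex, lies at chr11:79993106-80034123 on the plus strand. Its start region (chr11:79992556-79993699) had a proximal peak of 1144 bp and a distal peak of 1055 bp, and its other 2 regions lay at the starts of Utp6, upstream, and Crlf3, downstream. All 7 regions at these 3 genes were shared.

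The 200 bases just upstream of the 3 annotated starts are shown because they lay wholly within the shared regions. They were read from the GRCm38 assembly (mm10, strain C57BL/6J, not FVB) 5′ to 3′ on the strand of the gene, from chr6:47595342-47595541 (minus), chr7:89980984-89981183 (minus) and chr11:79992906-79993105 (plus). Capitals mark matches on either strand to the SP/KLF box GGGCGGG or the NFY box CCAAT, and a match is a match of letters, not a measured binding site.
Ezh2: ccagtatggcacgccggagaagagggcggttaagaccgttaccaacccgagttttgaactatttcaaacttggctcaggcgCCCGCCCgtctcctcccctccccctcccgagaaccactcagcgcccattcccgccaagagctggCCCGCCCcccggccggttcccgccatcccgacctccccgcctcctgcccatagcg
Eed: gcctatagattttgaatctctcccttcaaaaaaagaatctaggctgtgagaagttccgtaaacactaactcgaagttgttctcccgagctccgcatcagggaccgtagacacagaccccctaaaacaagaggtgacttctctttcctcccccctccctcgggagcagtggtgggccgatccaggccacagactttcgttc
Suz12: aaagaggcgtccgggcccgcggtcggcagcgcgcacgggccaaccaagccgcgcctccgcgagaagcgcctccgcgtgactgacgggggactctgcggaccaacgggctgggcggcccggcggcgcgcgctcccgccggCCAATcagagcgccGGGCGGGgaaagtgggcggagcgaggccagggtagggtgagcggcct
The Ezh2 stretch held 2 SP/KLF boxes, the Suz12 stretch 1 NFY and 1 SP/KLF box, and the Eed stretch no match to the patterns searched.

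The histone H3 methyltransferase genes Nsd1 and Setd2 were open at their starts at both ends, but the region at Nsd1 lay inside the gene. Nsd1 (chr13:55209782-55318325, plus strand) had its start region at chr13:55210714-55212573, with its nearest edge 932 bp downstream of the annotated 5′ end. The peaks measured 1606 bp in the proximal list and 1859 bp in the distal list. This region covered 4 other annotated coding transcript starts of Nsd1, which lie 953, 2037, 2293 and 2604 bp downstream of the 5′ end. Nsd1 also had a shared upstream region (chr13:55189932-55190729, 734 bp proximal and 790 bp distal) at no annotated coding start. Its 3 downstream regions lay at starts of other genes, with shared regions at Mxd3 and Lman2. The third, chr13:55321766-55322388, was distal-only. It was 623 bp wide, lay within 1 kb of annotated starts of Prelid1 and Rab24, and was 6901 bp from the nearest proximal peak. Setd2 (chr9:110532597-110618633, plus strand) had a start region at chr9:110531846-110533045, 1150 bp wide in the proximal list and 1200 bp in the distal list. Its other 3 regions were all downstream, all shared, and at the starts of Nradd, Nbeal2 and Ccdc12. Neither gene had a region inside it other than the start region.

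Dnmt3a, the DNA methyltransferase, had the narrowest start region and the most regions away from starts. The gene spans chr12:3806007-3914443 on the plus strand. Its start region, chr12:3806229-3806659, lay 222 bp downstream of the 5′ end and measured 421 bp in the proximal list and 415 bp in the distal list. Only 1.91% of coding start regions were narrower in the proximal list and 2.04% in the distal list. Of 13 distinct coding transcript starts annotated for Dnmt3a, 1 lay in this region and 4 within 1 kb of a region. The remaining 9 begin further inside the gene, between 55014 and 100809 bp from the 5′ end, and none of them was within 1 kb of a peak. Its introns held 3 regions. Shared regions lay at chr12:3824867-3825425 (552 bp proximal, 557 bp distal) and chr12:3854359-3854821 (463 bp proximal, 441 bp distal). A distal-only region of 648 bp lay at chr12:3855780-3856427, 958 bp from the nearest proximal peak, which belonged to the second of these shared regions. It was wider than 76.5% of all distal-only regions, whose median width was 497 bp. If a single-end region must have no peak of the other list within 1 kb, this region counts as shared. Upstream, shared regions lay at chr12:3781151-3782049 (682 bp proximal, 899 bp distal), inside the neighbouring gene Dtnb, and at chr12:3791728-3792221 (447 bp proximal, 469 bp distal). Downstream, a shared region lay at chr12:3959770-3960499 (730 bp proximal, 682 bp distal) within Pomc but not within 1 kb of a coding start. The neighbours Dtnb and Pomc are named because these regions lie in them, a choice made after the values were seen.

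The centres of 2 intronic regions of Dnmt3a are shown because they lie side by side and differ in status. Each is 200 bases on the plus strand of GRCm38, from chr12:3854490-3854689 for the shared region and chr12:3856004-3856203 for the distal-only region. Capitals mark matches to the AP-1 motif TGANTCA, the RUNX motif ACCACA or the TATA motif TATAAA on either strand.
Dnmt3a shared intronic region: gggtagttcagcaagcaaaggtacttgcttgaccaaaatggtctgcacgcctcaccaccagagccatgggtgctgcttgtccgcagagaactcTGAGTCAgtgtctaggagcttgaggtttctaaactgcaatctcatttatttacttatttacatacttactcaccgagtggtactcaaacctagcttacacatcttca
Dnmt3a distal-only intronic region: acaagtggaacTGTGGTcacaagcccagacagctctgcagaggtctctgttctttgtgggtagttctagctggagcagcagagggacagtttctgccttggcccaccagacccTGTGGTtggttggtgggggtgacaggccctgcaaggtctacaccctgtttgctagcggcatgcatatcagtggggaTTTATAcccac
In these 200 bases the shared region held 1 AP-1 match. The distal-only region held 2 RUNX matches and 1 TATA match, and no AP-1 match. Over its whole length the shared region also held 1 RUNX match, while the distal-only region still held no AP-1 match.

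The remodeler gene Chd8 lay in the densest stretch of open chromatin of the 10 genes. The gene spans chr14:52198151-52257780 on the minus strand. Its start region (chr14:52257221-52258266) had a proximal peak of 1031 bp and a distal peak of 1046 bp, close to the typical width of a coding start region. A second shared region inside the gene (chr14:52244026-52245117, 1074 bp proximal and 940 bp distal) covered the start of another coding transcript, 13271 bp downstream of the 5′ end. The other 4 regions lay in the flanks at starts of other genes. One lay at Supt16 just beyond the 3′ end, another at starts of Tox4 and Rab2b, and 2 at annotated starts of Mettl3. All 6 regions of Chd8 were shared. The start of each of its 4 coding neighbours within 50 kb had a peak of both lists.

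At Kmt2d, the enhancer methyltransferase gene, the region lay just upstream of the annotated start. The gene spans chr15:98831669-98871204 on the minus strand, and the region chr15:98871291-98872620 ended 87 bp before the 5′ end. The proximal peak measured 1119 bp and the distal peak 1031 bp, but they overlapped over only 61.7% of the merged region, against a median of 90.9% over all shared coding start regions. The proximal peak was the nearer to the gene. A region of 720 bp in the proximal list and 997 bp in the distal list (chr15:98830908-98831906) reached 238 bp into the terminal exon of Kmt2d and lay at the start of Prkag1. The 2 upstream regions were shared and lay at annotated starts of Rhebl1 and Lmbr1l. Of 6 other coding genes that start within 50 kb of Kmt2d, 2 had a peak of both lists at the gene start and 4 (Ddn, Dhh, Rhebl1 and Wnt1) had none. The region at Rhebl1 lay at one of its other annotated starts.

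The acetyltransferase genes Crebbp and Ep300 differed in the width of the start region and in their single-end regions. Crebbp (chr16:4081328-4213997, minus strand) had a start region of 695 bp in the proximal list and 679 bp in the distal list (chr16:4213835-4214531), narrower than in most genes. Only 17.2% of coding start regions were narrower in the proximal list and 17.8% in the distal list. Ep300 (chr15:81585351-81652077, plus strand) had a start region at chr15:81584929-81586608. The proximal list held a single peak of 1508 bp there. The distal list held 2 peaks of 784 bp and 823 bp, which together made 1607 bp. More distal than proximal peaks were found in 75 of 9551 shared coding start regions (0.785%). Crebbp had a shared intronic region (chr16:4160541-4161291, 697 bp proximal and 743 bp distal) and a shared region at the start of Trap1, downstream. Ep300 had a shared region at the start of L3mbtl2, downstream, and none in an intron.

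Both acetyltransferase genes had a single-end region in the downstream flank. The only proximal-only region of the set was chr16:4033152-4033542, which lay 47785 bp past the 3′ end of Crebbp, at no coding gene start. It was 391 bp wide, and the nearest distal peak was 28636 bp away. Of all proximal-only regions, whose median width was 510 bp, 21.3% were narrower. The distal-only region near Ep300 was chr15:81693909-81694332, 424 bp wide, at an annotated start of Chadl. It lay 29633 bp from the nearest proximal peak, and 34.3% of distal-only regions were narrower.

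Stretches of 200 bases at these regions are shown as single examples of starts, an intron and single-end regions. The upstream stretches, both wholly within the start regions, are from chr16:4213998-4214197 (minus) and chr15:81585151-81585350 (plus), on the strand of the gene. The centres of the other regions are on the plus strand, from chr16:4160816-4161015, chr16:4033247-4033446 and chr15:81694021-81694220. Capitals mark SP/KLF, NFY and SOX matches on either strand, with ACAATG as the SOX motif.
Crebbp upstream: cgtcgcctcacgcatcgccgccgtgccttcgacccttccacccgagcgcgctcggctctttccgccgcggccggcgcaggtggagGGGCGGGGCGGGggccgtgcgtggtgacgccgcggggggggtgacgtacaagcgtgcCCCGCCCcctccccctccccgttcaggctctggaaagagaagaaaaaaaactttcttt
Ep300 upstream: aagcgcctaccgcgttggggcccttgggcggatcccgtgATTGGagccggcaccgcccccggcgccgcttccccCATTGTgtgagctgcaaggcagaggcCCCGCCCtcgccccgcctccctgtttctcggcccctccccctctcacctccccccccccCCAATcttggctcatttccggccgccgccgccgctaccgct
Crebbp intronic region: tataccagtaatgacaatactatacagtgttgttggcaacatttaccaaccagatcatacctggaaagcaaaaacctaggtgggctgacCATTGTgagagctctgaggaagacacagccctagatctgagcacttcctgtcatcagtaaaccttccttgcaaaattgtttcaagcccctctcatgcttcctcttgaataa
Crebbp proximal-only region: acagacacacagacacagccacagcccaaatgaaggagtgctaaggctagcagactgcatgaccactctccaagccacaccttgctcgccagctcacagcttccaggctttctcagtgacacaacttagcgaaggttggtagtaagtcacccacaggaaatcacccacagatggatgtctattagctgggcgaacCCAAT
Ep300 distal-only region: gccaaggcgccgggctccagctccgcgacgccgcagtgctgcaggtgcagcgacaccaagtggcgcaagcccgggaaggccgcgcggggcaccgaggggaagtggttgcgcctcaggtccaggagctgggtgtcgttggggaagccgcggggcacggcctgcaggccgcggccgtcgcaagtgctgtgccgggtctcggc
The Crebbp upstream stretch held 3 SP/KLF boxes, of which 2 overlap. The Ep300 stretch held 1 SP/KLF box, 2 NFY boxes and 1 SOX match. The intronic region of Crebbp held 1 SOX match, its proximal-only region 1 NFY box, and the distal-only region near Ep300 no match.

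The widths of the start regions varied more between the genes than between the femur ends. The median over the 10 genes was 1147 bp in the proximal list and 1128 bp in the distal list. Over all coding start regions the median was 953 bp (quartiles 767 to 1172) in the proximal list and 931 bp (quartiles 748 to 1139) in the distal list. Ezh2, Nsd1, Eed and Ep300 were above the upper quartile in both lists, Setd2 in the distal list only, and Dnmt3a and Crebbp were below the lower quartile in both. The distal peak was the wider at 4 of 10 gene starts (40%), which were Nsd1, Setd2, Chd8 and Ep300, and at 4286 of 9551 shared coding start regions (44.9%). The largest difference was 253 bp, at Nsd1. Over all 36 shared regions of the set the distal peak was the wider in 16 (44.4%). Width depends on depth and on the peak caller and has no error here, so a wider peak is not a measure of more open chromatin.

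**Figure D3:**
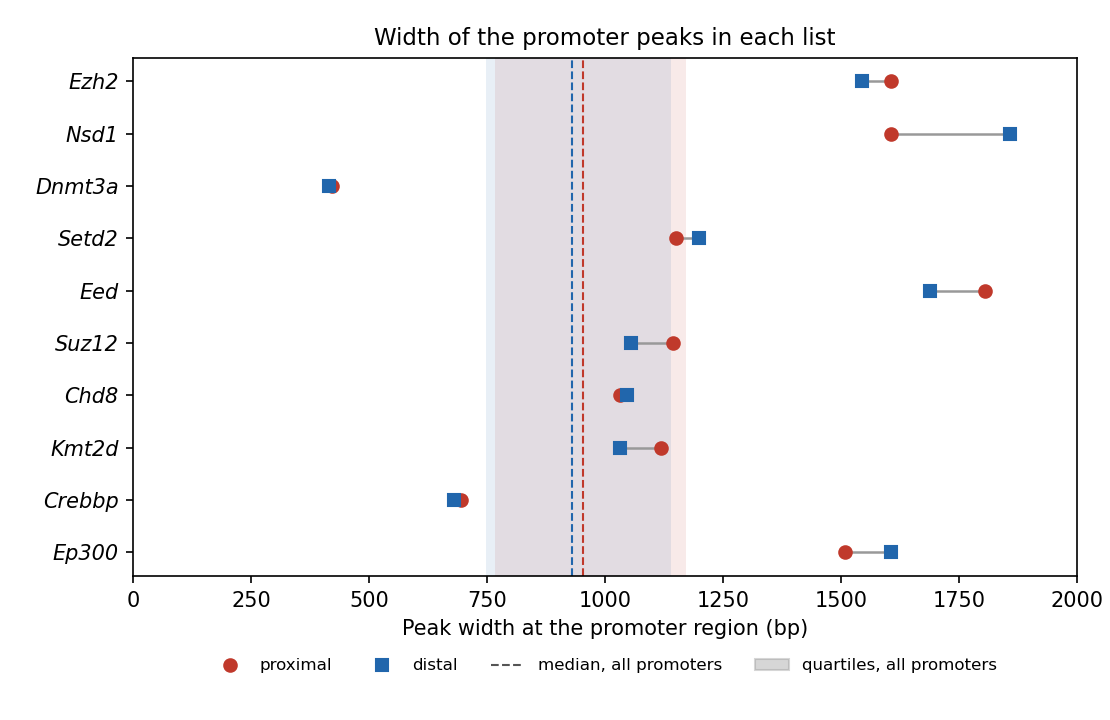
Width in bp (x axis, linear, from 0) of the peak or peaks at the start region of each gene in the proximal list (red circles) and the distal list (blue squares). Dashed lines and shaded bands are the medians and quartiles over all coding start regions in the same colours, and Dnmt3a at 421 and 415 bp lies farthest to the left. The distal value of Ep300 is the sum of 2 peaks.

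Not all starts annotated for these genes were open. The 10 genes have 109 annotated transcripts and 48 distinct coding transcript starts, of which 15 lay in a region and 22 within 1 kb of one. The share over the transcript starts of all coding genes was not counted, so these numbers are not a trait of the 10 genes. The set of RefSeq promoter entries used (GRCm38.p6) held 11 starts for 9 of the genes, and 6 of them lay inside a region. It held no entry for Nsd1, so the start of that gene was not compared with RefSeq. Of the 5 outside, 3 belonged to Dnmt3a, with 320, 500 and 35316 bases between start and region. The others belonged to Kmt2d, with 85 bases between, and Crebbp, with 430.

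The start regions had more CpG than the regions in introns. GC content at the start regions was highest at Nsd1 (73.8%), Setd2 (73%) and Dnmt3a (72.6%), and 8 of 10 exceeded the upper quartile of all coding start regions (65.2%, median 61.3%). Eed (57.5%) and Chd8 (60.4%) were below that median. The ratio of observed to expected CpG was between 0.71 at Dnmt3a and 0.988 at Crebbp, with a median of 0.745 over all coding start regions. The intronic regions had a GC content of 47.2%, 49.9% and 57.9% at Dnmt3a, the last of them distal-only, and 41.9% at Crebbp. Only the region with 57.9% reached the range of the start regions, whose lowest value was the 57.5% of Eed. In the 3 intronic regions of Dnmt3a the ratio was 0.193, 0.143 and 0.0766, and in the intronic region of Crebbp 0.061, against a median of 0.247 for all regions away from coding gene starts. The 2 distal-only regions at starts of other genes, near Nsd1 and Ep300, had ratios of 1 and 0.858. The proximal-only region near Crebbp had 0.271, so the single-end regions fell on both sides.

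**Figure D4:**
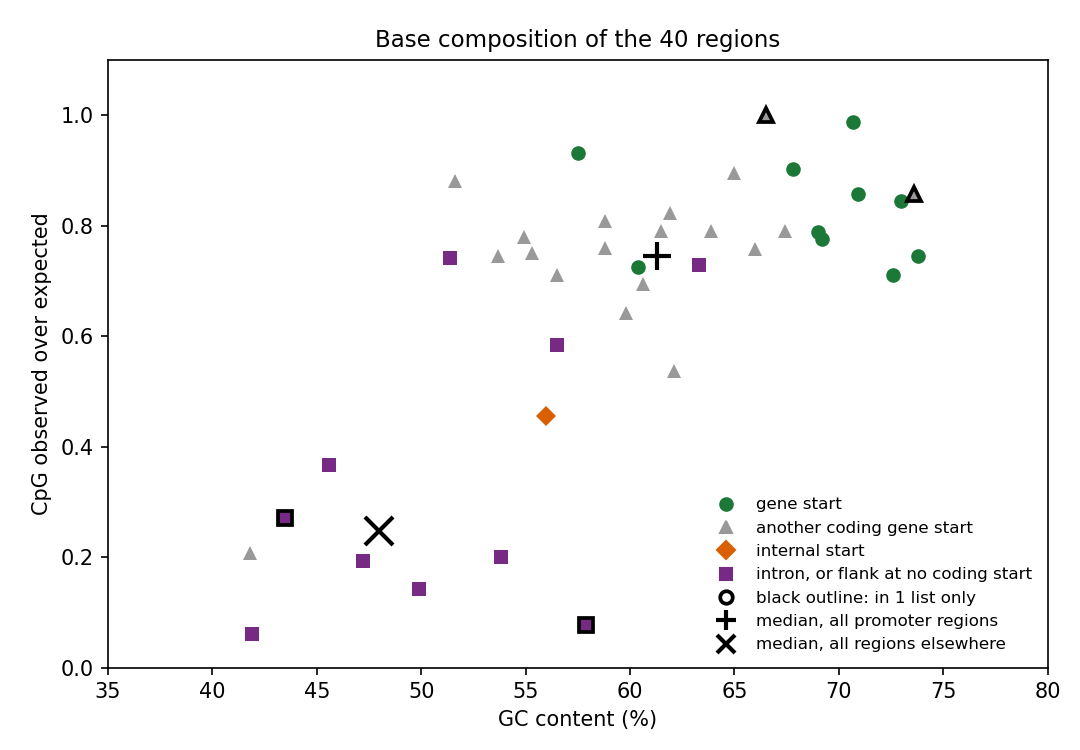
GC content (x axis, percent) and observed over expected CpG (y axis) of each of the 40 regions, with symbols for the class of region and a black outline for regions found in 1 list only. The plus sign and the cross mark the medians of all coding start regions (61.3%, 0.745) and of all regions elsewhere (48%, 0.247), and the 10 green circles of the gene starts all lie at a ratio of 0.71 or more.

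Motif letters were counted in 200 bp around the centre of each region, on both strands. The SP/KLF box was present at 6 of 10 start regions (Nsd1, Setd2, Eed, Suz12, Chd8 and Crebbp), and at 35.4% of all coding start regions. The NFY box was present at Suz12 and Chd8 (22.8% of all), the ETS motif CCGGAAG at Chd8 (11.5%) and an E2F motif, TTTCCCGC or TTTGGCGC, at Eed (1.84%). No start region of the 10 held AP-1 (3.19% of all), RUNX (6.24%), SOX (2.93%), TATA (2.11%), the cyclic AMP element TGACGTCA (2%), the NRF1 motif GCGCATGC (2.62%) or the YY1 motif AAGATGG (4.82%) in this window. The CTCF core, searched as CCA, AG and GGC with a pair of any bases between, was at none of them (1.92%). These zeros hold for the 200 bp window. In the whole start regions, RUNX was found in 3 of 10 (33.7% of all), SOX in 4 (17.9%), YY1 in 5 (18.1%), CTCF in 3 (9.38%) and NRF1 in 1 (8.21%), while AP-1 (17%), TATA (15.8%) and the cyclic AMP element (5.26%) were in none. The 10 regions in introns or in flanks at no coding start held AP-1 in 1 case, the shared intronic region of Dnmt3a, against 33.8% of all regions away from coding gene starts. RUNX was held by 3 of them, the distal-only intron and an upstream region of Dnmt3a and a downstream region of Eed (17.3% of all). NFY was held by 3, 1 each at Nsd1, Dnmt3a and Crebbp (22.4%), SOX by the Crebbp intron (5.71%) and TATA by the distal-only intron of Dnmt3a (9.2%). In the whole of these regions, AP-1 was found in 3 of 10 (52.1% of all), RUNX in 5 (40.8%), NFY in 3 (54.5%), SOX in 2 (20.9%) and TATA in 6 (28.9%). The background leaves out regions near gene starts only, whereas the 10 regions also leave out those near other annotated transcript starts of coding genes. With 10 regions in each class these counts describe the set, and no difference from the background was tested.

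Other genes of the same complexes and enzyme families were counted in the same way. Of 58 autosomal genes in 7 family lists, 36 had a peak of both lists at the gene start, 3 of the distal list only, 0 of the proximal list only and 19 had none. The share with both over all autosomal coding genes was 50.9%, and no difference of a list from it, or from the 10 regulators, was tested. For Polycomb repressive complex 2, 5 of 7 had both, Phf19 had a distal peak only and Ezh1, the paralog of Ezh2, had none. For enzymes that add or remove methyl groups on the same histone residue as Nsd1 and Setd2, 8 of 11 had both, and Nsd2, Kdm2b and Kdm4c had none. For DNA methylation 2 of 7 had both, and Dnmt1, Dnmt3b, Dnmt3l, Tet1 and Tet3 had none. For KMT2 complexes 9 of 14 had both, Ncoa6 and Setd1b had a distal peak only, and Kdm6b, Ash2l and Dpy30 had none. For the CHD remodelers 5 of 8 had both, and Chd2, Chd3 and Chd5 had none. For acetyltransferases 5 of 7 had both, and Kat2a and Kat6b had none. Of 4 other overgrowth genes 2 had both, and Nfix and Igf2 had none. In the lists, 5 genes lie on chromosome X, for which the lists hold no peaks, and Ezhip was not found in the annotation.

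The count depended on where a gene record begins. When any annotated transcript start was allowed, a setting added after the values were seen, 46 of the 58 genes had a peak of both lists, 2 a distal peak only and 10 none, while all 10 chromatin regulators kept both. Dnmt1, Tet1, Tet3, Kdm2b, Kdm4c, Ash2l, Dpy30, Chd2, Kat6b and Phf19 gained both lists in this way. Ezh1, Nsd2, Dnmt3b, Dnmt3l, Kdm6b, Chd3, Chd5, Kat2a, Nfix and Igf2 still had none. Over all autosomal coding genes, 55% then had a peak of both lists. In the DNA methylation family, the annotated starts of Dnmt3b and Dnmt3l lay at least 16489 and 13667 bp from any region. Dnmt3a and Dnmt1 had a peak of both lists within 1 kb of an annotated start, which for Dnmt1 was not the gene start. The annotated starts of the paralogs Ezh1 and Nsd2 lay at least 4397 and 1194 bp from any region.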

How the data were processed

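ATAC-seq peaks of proximal and distal femoral ends were used as deposited, as 1 list of positions per end. Per the labels and methods, the authors used Bowtie2 for alignment to mm10, used MACS2 for peak calling, and retained the peaks found in both of the 2 replicates at an IDR limit of 0.05. The submitters' processing notes name Bowtie2 2.2.8 and MACS2 2.1.1, and the methods name another MACS2 version. The deposited lists hold no other measurement, cover the 19 autosomes and carry no depth. Peaks overlapping by 1 bp or more were merged. Positions were compared with the GENCODE mouse release M21 annotation and the GRCm38 assembly in Python 3.11.15 with NumPy 2.4.6, SciPy 1.17.1 and pysam 0.24.0, and plotted with matplotlib 3.10.9. RefSeq starts were compared as a second annotation, and all 11 RefSeq promoter entries matched the assembly. Merging and classification were checked on simulated data, in which 3000 of 3000 regions received their true status. Shares carry Wilson intervals at 95% where given. The rule for genes named took the 10 regulators, genes whose start lay within 1 kb of a flanking region, and family genes with a peak of 1 list or none. Prkag1, Ddn, Dhh, Wnt1, Dtnb, Pomc, Col11a2 and Tek fall outside it and were named after their values were seen. The genes and lists were chosen with earlier results of these data known. Alternatives changed the distance limit, overlap, width filter, start window and motif window.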

Additional observations from a re-analysis of the deposited data

How the results depend on the processing

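Alternatives were tried for the counts of peaks, regions and classes, and 60 of 73 values stayed within 1.5 times the reported count. Some of these values could not move, so this number does not measure how stable the counts are. The rules on reciprocal overlap and on a peak of the other list within 1 kb change only the status. They leave the numbers of peaks and merged regions as they were. By construction a 20 kb limit gave fewer and a 100 kb limit more. At 20 kb there were 24 proximal peaks, 26 regions and 0 proximal-only regions. At 100 kb there were 66 proximal peaks, 73 distal peaks, 74 regions, 64 shared, 2 proximal-only and 8 distal-only regions. Requiring a reciprocal overlap of 50% gave 35 shared, 2 proximal-only and 4 distal-only regions, because a region that fails the requirement counts for both ends. The failing region was the start region of Ep300, where the distal list held 2 peaks. Regions at internal starts numbered 2 when the start window was applied to the region centre and 3 when it reached only 100 bp downstream, since start regions inside the gene are then reclassified. With peaks under the median width left out, intronic regions numbered 1. The number of genes with a peak of both lists at the start was 10 with a 3 kb window, which cannot lower it, and 9 by the centre. It was 8 with 100 bp downstream and 8 with wide peaks. The setting for starts of coding transcripts left the gene start where it was, so it could not change this number. Motif shares rose in whole regions and mostly fell on 1 strand, as their construction implies. No paired analysis was possible because each list combines its replicates, and for the same reason no replicate could be left out.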
